A study of Mus musculus with 4 samples.

Results

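The ion channel and transmitter receptor genes described here are the mouse genes named for potassium channels (Kcn), calcium channels (Cacn), sodium channels (Scn), ionotropic glutamate receptors (Gria, Grid, Grik and Grin) and GABA-A receptors (Gabr), leaving out Kcnq1 and its antisense transcript Kcnq1ot1. They were chosen by name wherever the authors' annotation gave such a name to at least 1 peak of trimethylated lysine 36 on histone H3 (H3K36me3). This rule gave 32 genes of the 12987 gene names in the deposited annotation of the series, 31 in the conditional knockout (cKO) and 17 in wild type (WT). A gene without a peak cannot be named, so the 32 were also read against all 171 protein-coding genes of these families in RefSeq (assembly GRCm38.p6, with the chromosomes of mm10).

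Neural progenitor cells came from C57BL/6 mouse forebrains at embryonic day 13, and DNA carrying the mark was pulled down with an antibody and sequenced (ChIP-seq). The cKO embryos were labelled as carrying a deletion of the histone variant gene H2A.z1 in the brain (genotype H2A.z1cKO), and the controls were WT embryos of the same strain and age. The driver of the deletion, the number of embryos behind each library and any pooling are not given in the sources used here. Each genotype had 1 ChIP and 1 input library, so no difference between genotypes below has a replicate check or a test, and intervals cover counting error only. The ChIP libraries held 32927164 tags in cKO and 31984670 in WT, yet the cKO peak list was much longer, with 95750 peaks over 69.07 Mb in cKO and 36820 over 13.32 Mb in WT. H2az1 itself, a gene of 2.44 kb, carried 2 peaks over 21.1% of its body in cKO and 1 over 7.80% in WT. Which part of the gene was deleted is not given, so these peaks do not check the label.

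Voltage-gated and leak channels set the membrane potential and firing of neurons, and glutamate and GABA-A receptors are the channels opened by the main fast transmitters of the brain. Many of these genes are switched on as progenitors leave the cell cycle and mature into neurons. H3K36me3 is laid down by the enzyme SETD2, which travels with elongating RNA polymerase II, and it is known as a mark of the bodies of transcribed genes, usually fuller towards the 3′ end than at the start.

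The labelled cell type was set against marker genes. Of 14 neural progenitor markers, 13 carried a peak over the body in cKO and 11 in WT, with a median of 37.1% of the body inside peaks in cKO and 16.6% in WT. Of 10 neuron markers, 4 (Tubb3, Bcl11b, Stmn2 and Map2) were marked in cKO and 3 in WT. Microglia markers were marked in 1 of 4 cases in cKO, endothelium in 0 of 4 and the oligodendrocyte lineage in 2 of 4. Astrocytes had 0 of 3 in cKO and blood 1 of 3. In WT, no marker of microglia, endothelium, the oligodendrocyte lineage, astrocytes or blood was marked. The background was 43.7% of all protein-coding genes in cKO and 31.3% in WT. Lists of 3 or 4 genes are too short to place against it, and the neuron list, at 40% in cKO, lay near it. In bulk chromatin, fewer cells that carry a mark and less mark per cell cannot be told apart.

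Most channel and receptor genes carried no peak in either library. A peak overlapped the body of 29 of the 171 genes in cKO (17.0%, exact Clopper-Pearson 95% interval 11.7 to 23.4%), against 43.7% of all 21887 protein-coding genes. In WT 13 of 171 were marked (7.60%, interval 4.11 to 12.7%), against 31.3% of all. Of these genes, 24 in cKO and 10 in WT had a body peak that overlapped no other protein-coding gene. The like share over all protein-coding genes is not given here. The 13 genes marked in WT were all among the 29 marked in cKO. A further 16 were marked in cKO alone, where 12.9% of all protein-coding genes were, and none in WT alone, where the background was 0.484%. The remaining 142 had no peak in either. When only the strongest cKO peaks were kept, as many as the WT list holds (the reduced cKO list), 15 of the 171 were marked in cKO (8.77%, against 34.3% of all protein-coding genes). Of the 16 genes marked in cKO alone, 4 then kept a body peak (Cacna2d1, Cacng8, Kcnj14 and Kcnk7), while Kcnab1 and Scn8a had one in WT alone. The kept peaks of Kcnj14 and Kcnk7 also overlapped another protein-coding gene, and that of Cacna2d1 carried the name Gm8984. Coverage was low even where a peak was found, with a median of 3.39% of the body inside peaks over the 29 marked genes in cKO and 0.927% over the 13 in WT, against 21.3% in cKO and 4.50% in WT over all marked protein-coding genes.

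The families differed in how many members were marked. Calcium channel genes had peaks over 11 of 26 bodies in cKO (42.3%) and 7 in WT (26.9%). These shares were the nearest of the 5 families to those of all genes. All body peaks of Cacna1c and Cacna1d, which are counted here, also overlapped another protein-coding gene in both libraries. Glutamate receptor genes followed with 4 of 19 in cKO and 2 in WT, sodium channel genes with 2 of 14 in cKO and 1 in WT, and potassium channel genes with 12 of 93 in cKO and 3 in WT. None of the 19 GABA-A receptor genes was marked in either library, which allows a share of up to 17.6% by the exact interval. As a scale, genes of axon guidance (semaphorins, plexins, ephrins, netrins, slits and their receptors) were marked in 31 of 71 cases in cKO and 23 in WT, and Rab GTPase genes in 43 of 69 in cKO and 29 in WT.

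**Figure D1:**
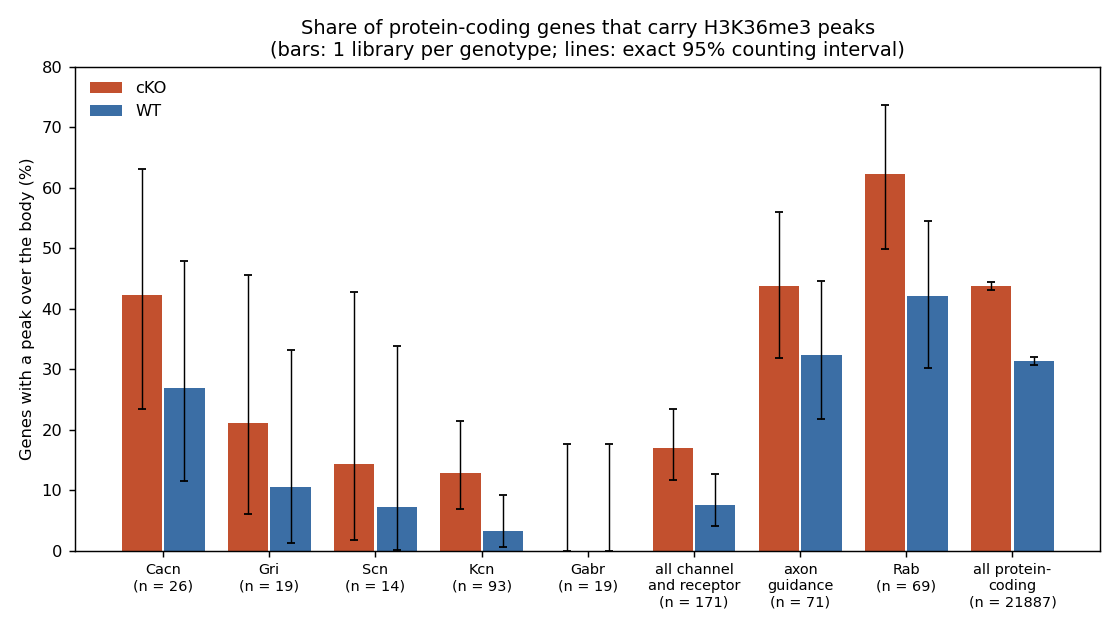
Share of protein-coding genes with at least 1 H3K36me3 peak over the body, in percent, for each channel and receptor family, all 171 of them, axon guidance genes, Rab genes and all protein-coding genes, with cKO left of WT. Bars are 1 library each and lines are exact 95% counting intervals; calcium channel genes stand at 42.3% in cKO and 26.9% in WT, and GABA-A receptor genes at 0.

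Channel and receptor genes were long, with a median of 54.4 kb against 17.2 kb for all protein-coding genes and 53.4 kb for axon guidance genes. In 5 length classes, from under 10 kb to over 300 kb, between 14.9 and 19.4% of them were marked in cKO, while the share of all protein-coding genes ran from 25.4 to 58.4%. In WT the same classes gave 4.55 to 12.9% of the channel and receptor genes and 16.3 to 43.5% of all. The percent of a body inside peaks also depends on gene length. Marked axon guidance genes, from a set of like median length, had a median of 11.85% in cKO and 2.63% in WT. The lengths of the marked genes alone were not compared. Marked channel and receptor genes had 3.39% in cKO and 0.927% in WT.

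**Figure D2:**
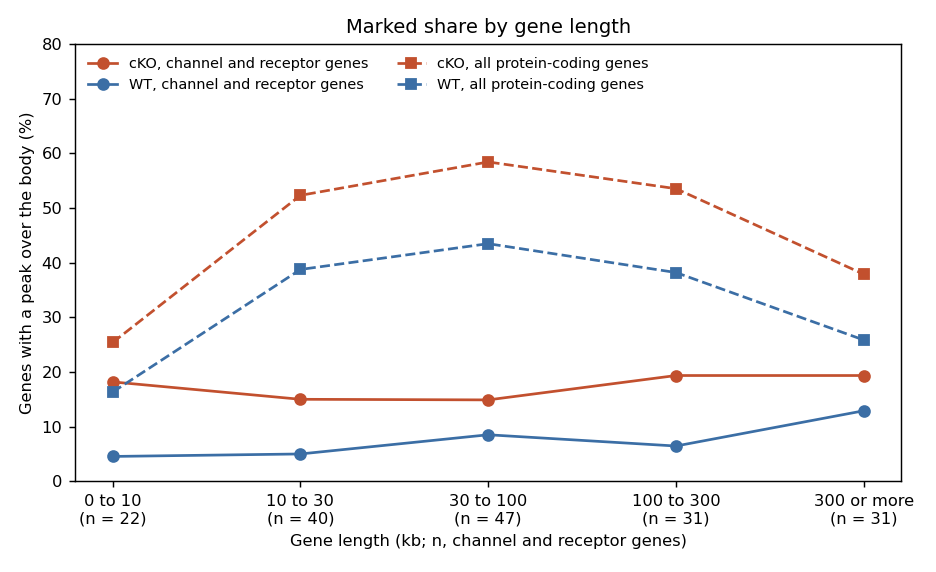
Share of genes with a peak over the body, in percent, by gene length in kb, for channel and receptor genes (solid lines) and all protein-coding genes (dashed lines) in cKO and WT. The channel and receptor genes lie below all genes of the same library in every length class, by the least under 10 kb in cKO, at 18.2% against 25.4%.

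Of 27 genes listed as main pore-forming subunits of the forebrain, 5 carried a peak over the body in cKO (Scn3a, Scn8a, Cacna1c, Cacna1d and Gria2). In WT 3 did (Scn8a, Cacna1c and Cacna1d). The list includes Scn3a, a pore of the embryonic brain. These shares, 18.5% in cKO and 11.1% in WT, stand beside 17.0% in cKO and 7.60% in WT of all 171. The highest coverage among these was 1.18% in cKO and 0.171% in WT, both for Cacna1d. Those without a body peak in either library included the sodium channels Scn1a and Scn2a, the presynaptic calcium channels Cacna1a, Cacna1b and Cacna1e, and the potassium channels Kcna1, Kcna2, Kcnc1, Kcnd2, Kcnq3 and Kcnj6. The same held for the AMPA receptor subunit Gria1, the NMDA receptor subunits Grin1, Grin2a and Grin2b, the kainate receptor subunit Grik2 and the GABA-A receptor subunit Gabra2. These are descriptions of called peaks, and signal under the calling threshold was not examined.

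By the authors' gene names, 28 of the 32 genes had a non-intergenic peak in either library, 27 of them in cKO (96.4%) and 16 in WT (57.1%). Of all 12573 names with such a peak in either library, 97.2% had one in cKO and 66.9% in WT. Of the 28, 15 were marked in both, 12 in cKO alone (42.9%, background 33.1%) and 1, Scn8a, in WT alone (3.57%, background 2.8%). The other 4 had intergenic peaks alone. The named genes held 195 non-intergenic peaks of 153 kb in sum in cKO and 69 of 25.5 kb in WT, a ratio of 6.01 in length and 2.83 in number. The whole lists gave 5.18 and 2.58. All 15 genes marked in both had at least 2-fold more peak length in cKO, as did 89.9% of all names marked in both, and none had 2-fold less (background 0.546%). Their ratios of cKO over WT ran from 2.12 to 16.7 with a median of 7.57, beside a median of 5.47 and quartiles of 3.22 and 9.53 over all 8054 names marked in both. These counts go by name, wherever the peak lies, and the 15 include genes with no body peak, among them Grik4, Kcnk13 and Kcnrg. Counting only peaks in the named gene's span and no other protein-coding span left 6 genes at least 2-fold longer in cKO.

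**Figure D3:**
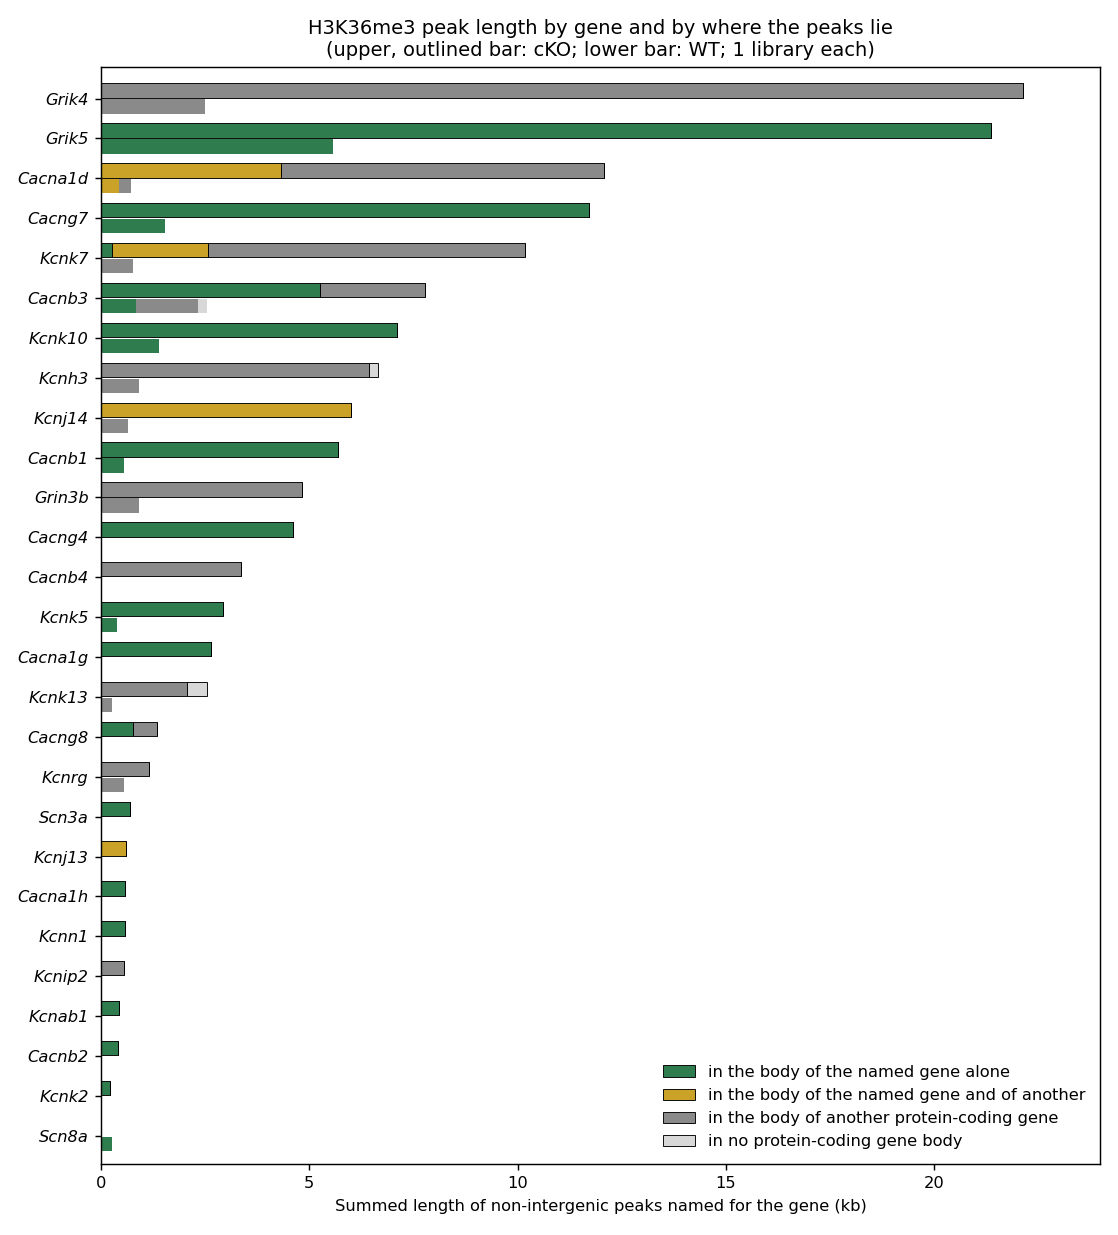
Summed length in kb of the non-intergenic peaks named for each of 27 genes that had any, cKO above WT, coloured by where the peaks lie. Grik4 (22.1 kb in cKO, 2.50 kb in WT) has no peak in its own body, while the peaks of Grik5, Cacng7, Cacnb1 and Kcnk10 lie in theirs.

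A name did not always place the peak in the gene. The annotation gives the transcript in which a peak lies and, separately, a gene, and the rule that picked the gene is not stated in the files. Of the 195 cKO peaks, 96 lay in the body of the named gene alone, 9 in its body and that of another protein-coding gene, 88 in another gene only and 2 in none. In WT these were 33, 2, 33 and 1. Peaks in another gene only held 48.4% of the length in cKO and 56.2% in WT. By number they were 45.1% in cKO and 47.8% in WT. Over all named peaks, 23.9% by number in cKO and 24.3% in WT lay outside the span of their named gene. Of the genes with a named non-intergenic peak, 8 of 27 in cKO and 8 of 16 in WT had none in their own body. The background was 11.6% of protein-coding names in cKO and 14.3% in WT. The reverse occurred too, as 45 of the 151 peaks over channel and receptor gene bodies in cKO, and 14 of 49 in WT, carried another gene's name.

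Calcium channel pores come first among the genes marked in their own bodies. Cacna1g, which encodes a low-voltage-activated T-type channel (chromosome 11, 94408391 to 94474400), held 10 peaks in cKO and none in WT, and none of the 10 remained in the reduced cKO list. They were short, with a median width of 209.5 bp and the longest 466 bp, and covered 3.99% of the body in cKO. By the authors' classes 4 of the 10 were exonic and 4 intronic, and they lay between 12 and 64.2 kb from the 5′ end. The other T-type gene with peaks, Cacna1h (chromosome 17, 25374285 to 25436334), had 2 in cKO, over 0.917% of the body, and none in WT. Neither of these remained in the reduced cKO list.

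The L-type channel genes Cacna1d and Cacna1c were marked at one end only. Cacna1d (chromosome 14, 30039941 to 30491156) spans 451 kb, and its body peaks numbered 7 in cKO and 3 in WT. All of them lay within 9.27 kb of the 5′ end in cKO and 6.36 kb in WT, where the gene overlaps Dcp1a, an mRNA decapping gene. All 18 cKO peaks and 3 WT peaks named Cacna1d overlapped Dcp1a, whose body was 38.4% inside peaks in cKO and 5.83% in WT. Cacna1c showed the same arrangement, with 7 body peaks in cKO and 2 in WT, all named for and overlapping Dcp1b and none beyond 17.1 kb of a 610 kb gene. In the reduced cKO list Cacna1d kept 3 body peaks, over 0.798%, against 0.171% in WT. Cacna1c kept 1, over 0.0564%, against 0.0734% in WT. For both genes the peaks cannot be assigned to the channel rather than to the decapping gene.

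Among calcium channel auxiliary subunits, Cacng7 had the highest body coverage in cKO. It encodes a transmembrane regulator of AMPA receptors (TARP) of the gamma family (chromosome 7, 3332027 to 3368221). Its 36.2 kb held 16 peaks covering 34.0% in cKO and 5 covering 4.24% in WT. All were intronic, and no other protein-coding gene overlaps them. The cKO peaks ran from 6.08 to 33.2 kb from the 5′ end and those of WT from 8.75 to 18.1 kb, so the 3′ part was marked in cKO alone. The peak with the largest pileup stood at the same place in both, 12.6 to 13.5 kb from the 5′ end in cKO and 12.7 to 13.3 kb in WT. By fold enrichment the highest cKO peak was another, from 19.0 to 20.6 kb (8.61, against 4.77), beyond the last WT peak. The reduced cKO list kept 8 of the 16 peaks, over 24.5% of the body.

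The next gene on the chromosome, Cacng8, another TARP, had 1 peak in its own body in cKO, of 753 bp, and none in WT. The 2 further cKO peaks named Cacng8 lay inside Cacng7. Cacng4, the third TARP with peaks (chromosome 11, 107732357 to 107794706), held 9 body peaks over 8.91% in cKO and 1 over 0.844% in WT. In cKO, 8 of them lay in the last stretch of the gene, from 54.4 to 61.7 kb of 62.4 kb. The ninth, from 4.57 to 5.50 kb, and the only WT peak, from 9.57 to 10.1 kb, carried the name of a predicted gene, Gm11650, so by name Cacng4 counted as marked in cKO alone. In the reduced cKO list 1 of the 9 body peaks of Cacng4 remained, over 2.44%.

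The beta subunits, cytoplasmic proteins that carry calcium channels to the membrane and set their gating, included genes with wide coverage. Cacnb1 (chromosome 11, 98001508 to 98023034) held 14 peaks over 26.4% of its 21.5 kb in cKO and 2 over 2.53% in WT. The cKO peaks were spread from 4.42 to 18.5 kb, with a median width of 374.5 bp. Both WT peaks lay in the later part, at 14.7 to 15.0 kb and 17.8 to 18.1 kb. In the reduced cKO list Cacnb1 kept 3 of the 14 peaks, over 7.77% of its body. Cacnb3 (chromosome 15, 98628436 to 98644536) was marked over its 3′ part, with 2 body peaks over 28.8% in cKO and 3 over 5.19% in WT. In the reduced cKO list 1 of the 2 remained, over 27.6%. The longer cKO peak, of 5078 bp, ran beyond the end of the gene, and each library also had peaks named Cacnb3 inside the neighbour Ddx23, a splicing helicase gene, 1 in cKO and 3 in WT. Cacnb2 had 2 body peaks in cKO and 1 in WT, of which 1 in each library was named Gm13316. The 4 cKO peaks named Cacnb4 all lay in Stam2, an endosomal sorting gene, with none in WT. Cacna2d1, an alpha-2-delta subunit gene, had 1 peak in cKO, named Gm8984, and none in WT.

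Start sites were searched with the RefSeq windows of 250 bases before to 50 after each start. A peak overlapped 2 of 169 channel and receptor windows (128 genes) in cKO and none in WT. Over all protein-coding genes the shares were 0.734% of 21263 windows in cKO and 0.127% in WT. The windows of the fullest genes, and the 2 that met a peak, are shown to set the marked starts beside unmarked ones. All are from RefSeq (GRCm38.p6), read 5′ to 3′ on the minus strand except Cacng7 on the plus strand, and capitals mark bases inside a cKO peak.
Grik5 chr7:25072320-25072619: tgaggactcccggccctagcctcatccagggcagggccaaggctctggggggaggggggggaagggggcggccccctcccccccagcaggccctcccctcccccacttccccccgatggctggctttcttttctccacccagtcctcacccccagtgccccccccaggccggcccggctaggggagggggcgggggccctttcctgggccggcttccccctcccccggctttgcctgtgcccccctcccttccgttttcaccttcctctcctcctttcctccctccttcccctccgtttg
Cacng7 chr7:3332575-3332874: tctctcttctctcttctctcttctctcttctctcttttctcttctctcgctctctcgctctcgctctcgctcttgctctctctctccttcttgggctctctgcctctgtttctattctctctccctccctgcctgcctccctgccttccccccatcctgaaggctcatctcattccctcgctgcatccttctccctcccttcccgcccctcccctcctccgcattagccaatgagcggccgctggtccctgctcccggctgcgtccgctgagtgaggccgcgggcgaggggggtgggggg
Cacnb1 first start, chr11:98022578-98022877: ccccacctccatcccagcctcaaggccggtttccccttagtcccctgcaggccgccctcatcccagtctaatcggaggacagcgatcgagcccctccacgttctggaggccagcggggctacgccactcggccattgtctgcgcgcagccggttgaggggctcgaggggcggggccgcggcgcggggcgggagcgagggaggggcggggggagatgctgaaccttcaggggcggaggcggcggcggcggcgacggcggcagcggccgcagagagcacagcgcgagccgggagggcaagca
Cacnb1 later start, chr11:98018323-98018622: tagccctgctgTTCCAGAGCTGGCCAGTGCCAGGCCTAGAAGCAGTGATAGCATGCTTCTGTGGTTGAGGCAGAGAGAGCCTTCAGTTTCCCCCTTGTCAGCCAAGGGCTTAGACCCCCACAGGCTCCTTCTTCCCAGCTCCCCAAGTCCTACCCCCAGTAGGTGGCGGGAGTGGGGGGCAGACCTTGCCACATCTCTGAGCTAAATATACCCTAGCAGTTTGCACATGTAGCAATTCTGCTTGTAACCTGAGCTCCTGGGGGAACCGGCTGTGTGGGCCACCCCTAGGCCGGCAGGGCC
Cacna1d outer start, chr14:30491107-30491406: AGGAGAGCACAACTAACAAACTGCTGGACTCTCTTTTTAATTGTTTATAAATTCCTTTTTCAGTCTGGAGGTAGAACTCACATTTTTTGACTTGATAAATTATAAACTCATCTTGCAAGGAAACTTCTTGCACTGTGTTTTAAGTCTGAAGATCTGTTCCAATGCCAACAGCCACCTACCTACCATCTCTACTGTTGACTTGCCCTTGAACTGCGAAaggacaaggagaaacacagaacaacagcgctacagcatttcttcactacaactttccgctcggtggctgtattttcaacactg
The Grik5, Cacng7 and first Cacnb1 windows held no capital, and the nearest peak to each was 3.74, 5.23 and 3.97 kb away in cKO and 4.03, 7.91 and 5.49 kb away in WT. The later Cacnb1 window, inside the gene, lay in a peak over 289 of its 300 bases. The outer Cacna1d window did so over 217, all of them before the 5′ end of the Cacna1d span and inside Dcp1a. A second Cacna1d window, at chr14:30353437-30353736, is not shown; it held no peak, with the nearest 128 kb away in cKO and 131 kb away in WT. Both windows that met a peak were poor in CG, the letters C then G, which read the same on either strand, with 3 in the later Cacnb1 window and 4 in the outer one of Cacna1d. The unmarked windows held 10 in Grik5, 15 in Cacng7, 34 at the first Cacnb1 start and 63 at the second Cacna1d start. At least 1 CG stood in 95.4% of all windows, with a median of 13. Over all protein-coding genes the median was 22 with a body peak in cKO and 5 without, while for channel and receptor genes it was 10 with one and 9 without.

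Grik5 was the most fully marked of all channel and receptor genes. It encodes GluK5, a kainate receptor subunit that forms channels only together with other subunits (chromosome 7, 25009849 to 25075694). Its 65.8 kb body held 33 peaks over 52.2% in cKO and 22 over 11.5% in WT. All of them lay in no other protein-coding gene. The cKO peaks included 2 of about 5 kb, of 5082 and 4926 bp, whereas the longest in WT was 603 bp. Peaks began 7.12 kb from the 5′ end in cKO and 7.41 kb in WT, and the last ended 62.6 kb away in cKO and 61.2 kb away in WT. Peaks were thus spread along the body in both libraries, with unmarked gaps between them.

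Its name covered only part of this. In the far part of the body, 17 of the 33 peaks in cKO and 7 of the 22 in WT carried another gene's name. By the authors' name Grik5 thus had 16 peaks of 21.4 kb in cKO and 15 of 5.56 kb in WT, a ratio of 3.85.

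**Figure D4:**
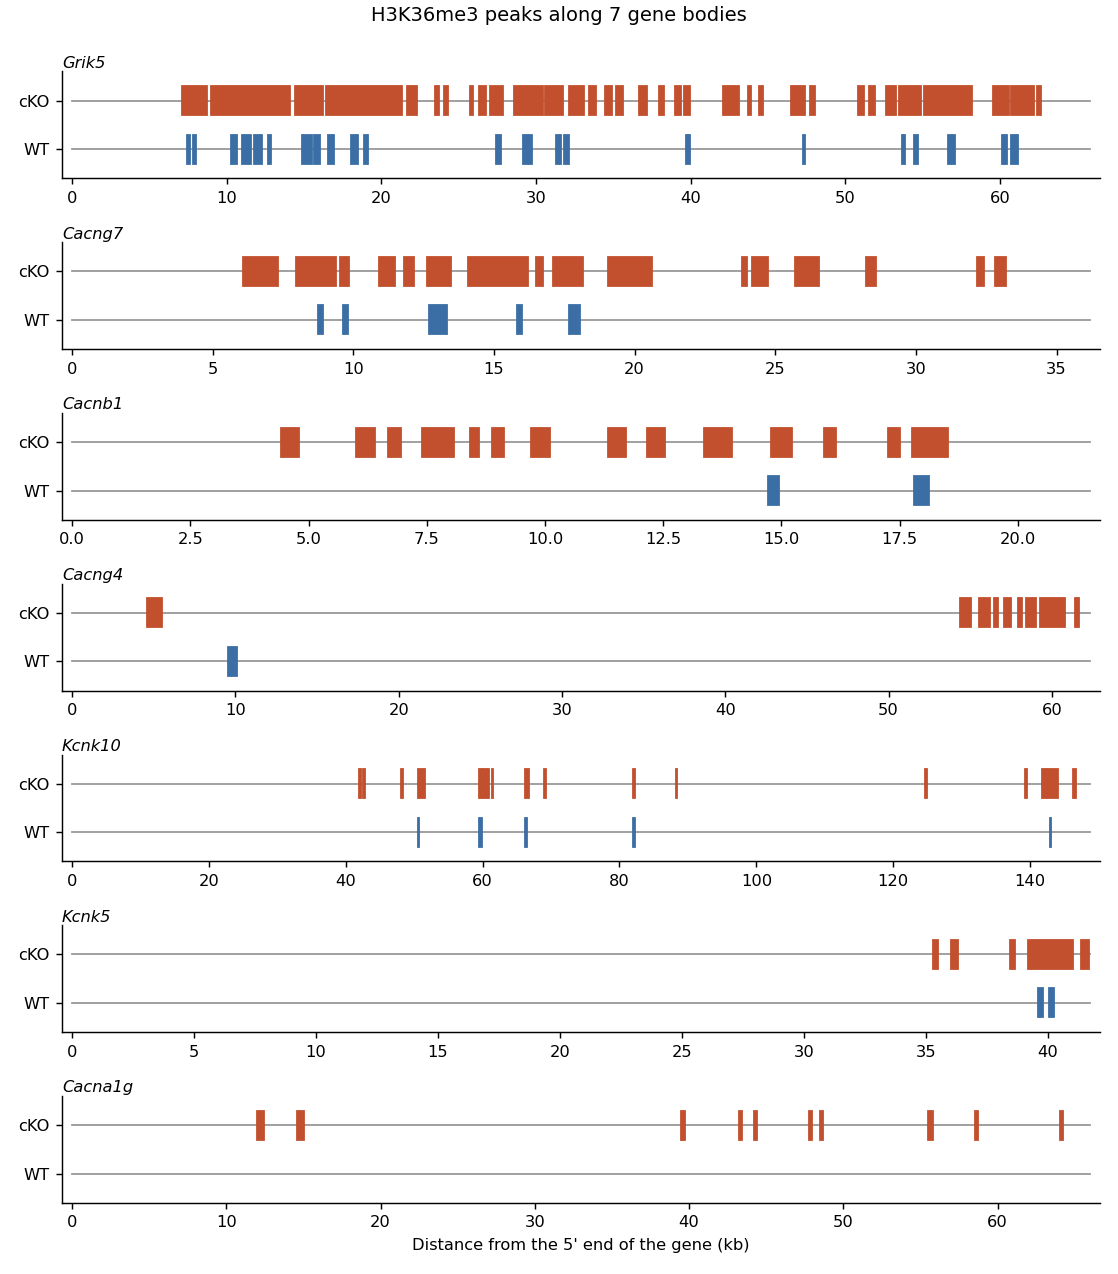
H3K36me3 peaks (filled blocks) along the bodies of 7 genes whose peaks lie in no other protein-coding gene, by distance in kb from the 5′ end, with cKO above WT. Grik5 has peaks spread along its body in both libraries, over 52.2% of it in cKO and 11.5% in WT, Kcnk5 and Cacng4 mainly near the 3′ end in cKO, and Cacna1g in cKO alone.

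The other kainate receptor name, Grik4, had the longest summed peaks of all, 38 peaks of 22.1 kb in cKO and 9 of 2.50 kb in WT. None lay in Grik4 (chromosome 9, 42518182 to 42945000). All were inside Arhgef12 (chromosome 9, 42963842 to 43105718), over 16.0% of which lay inside peaks in cKO and 1.77% in WT. The remaining kainate receptor genes had no body peak.

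Of the 11 NMDA and AMPA receptor genes, 3 had a body peak in cKO and 1 in WT. Grin3b, a glycine-binding NMDA receptor subunit gene (chromosome 10, 79970397 to 79977190), had 1 peak at its 3′ end in each library, covering 30.5% of 6.79 kb in cKO and 5.22% in WT. Both were named Tmem259 and overlap another protein-coding gene, and the peaks named Grin3b, 2 in cKO and 3 in WT, lay in Wdr18, a ribosome biogenesis gene. Grin3a had 1 peak of 447 bp in cKO, named Rnf20, and none in WT. Gria2, the AMPA receptor subunit that limits calcium entry, had 1 of 248 bp in cKO, named Gm25749, and none in WT. Neither the Grin3a nor the Gria2 peak remained in the reduced cKO list.

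Potassium channel genes marked in their own bodies were led by the two-pore family, whose channels carry background leak current. Kcnk10 (TREK-2, chromosome 12, 98429432 to 98578213) held 17 peaks over 5.07% of 149 kb in cKO and 5 over 0.934% in WT. Peaks lay from 41.9 to 147 kb in cKO and from 50.6 to 143 kb in WT, with the median midpoint 44.7% of the way along the body in cKO and 44.6% in WT, and 1 of the 17 was classed as intergenic by the authors. With the cKO list reduced to the number of WT peaks by strength, 1 of the 17 remained, over 0.290% of the body, against the 0.934% of WT. It was the peak classed as intergenic, so by name Kcnk10 then counted as marked in WT alone. Kcnk5 (TASK-2, chromosome 14, 20140057 to 20181782) held 5 peaks over 7.02% in cKO and 2 over 0.927% in WT, none nearer than 35.3 kb to the 5′ end of a 41.7 kb gene. The reduced cKO list kept 3 of the 5, over 6.03%.

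The short gene Kcnk7, for which no channel current of its own is known, had 22.9% of 3.51 kb inside 2 peaks in cKO and none in WT. One of these ran on into Ehbp1l1, and of the 9 peaks named Kcnk7 in cKO, 3 lay in Map3k11 and 5 overlapped Ehbp1l1. All 3 WT peaks of that name lay in Map3k11, a kinase gene. Kcnk13 (THIK-1) had 7 named peaks in cKO and 1 in WT, none in its body. In cKO 6 of them, and the WT peak, lay in Tdp1, a DNA repair gene. Kcnk2 (TREK-1) had 1 peak of 223 bp in cKO, which did not remain in the reduced cKO list, and none in WT.

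Inward rectifiers, which hold cells near rest, were marked in 4 of 15 cases in cKO (26.7%, beside 17.0% of all 171) and in none in WT (beside 7.60%). In the reduced cKO list 1 of the 4, Kcnj14, kept its peak. Kcnj14 had the highest coverage, with 22.3% of its body under a single cKO peak of 5988 bp. That peak also covered Grwd1, a ribosome biogenesis gene 67.3% inside peaks in cKO and 11.2% in WT, and the 2 WT peaks named Kcnj14 lay in Grwd1 alone. Kcnj13 lies within Gigyf2, a gene for translational repression, and both of its cKO peaks overlap that gene. Kcnj9 and the glial channel gene Kcnj10 had 1 cKO peak each, of 443 and 362 bp, named for their neighbours Igsf8 and Pigm.

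Of 29 genes for voltage-gated potassium channel pores, 1 was marked in cKO (3.45%, beside 17.0% of all 171) and none in WT (beside 7.60%). This was Kcnh3 (chromosome 15, 99224517 to 99242818), with 2 peaks over 6.79% of its body in cKO, both named Mcrs1. The peaks named Kcnh3 lay elsewhere, 9 of 10 in cKO and all 4 in WT inside Spats2. The calcium-activated channel gene Kcnn1 had 1 peak of 568 bp in cKO and none in WT. None of the Kcnh3 and Kcnn1 body peaks remained in the reduced cKO list. Among auxiliary subunits, Kcnab1 had 5 body peaks in cKO and 1 in WT, none nearer than 418.6 kb to the 5′ end of a 429 kb gene. Kcnip4 had 2 in cKO and none in WT. Of the Kcnab1 body peaks, 4 in cKO and the only WT one were named Ssr3, and both Kcnip4 peaks were named 5730480H06Rik. None of the Kcnab1 and Kcnip4 body peaks in cKO remained in the reduced list. The 2 cKO peaks named Kcnip2 lay in Armh3. Those named Kcnrg, an inhibitor of channel assembly, lay in Trim13, a ubiquitin ligase gene that overlaps it in part, 3 in cKO and 1 in WT. None of the 10 electrically silent modifier genes was marked, beside 17.0% of all 171 in cKO and 7.60% in WT.

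Sodium channel genes held 4 body peaks in cKO and 1 in WT. Scn3a, the Nav1.3 pore of the embryonic brain (chromosome 2, 65457118 to 65567591), had 3 peaks in cKO, of 185, 229 and 289 bp over 0.636% of the body, and none in WT, and none of the 3 remained in the reduced cKO list. Scn8a (Nav1.6) had 1 body peak in each library, 318 bp in cKO and 271 bp in WT. They did not overlap, lying 144 kb from the 5′ end in cKO and 124 kb in WT, and the cKO one was named Fignl2, so by name Scn8a counted as marked in WT alone.

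Some genes were named for intergenic peaks alone. Kcne4, a potassium channel auxiliary subunit gene, had 2 intergenic peaks in cKO and 1 in WT. Kcnj15 and Kcnv1 had 1 each in cKO and none in WT.

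**Figure D5:**
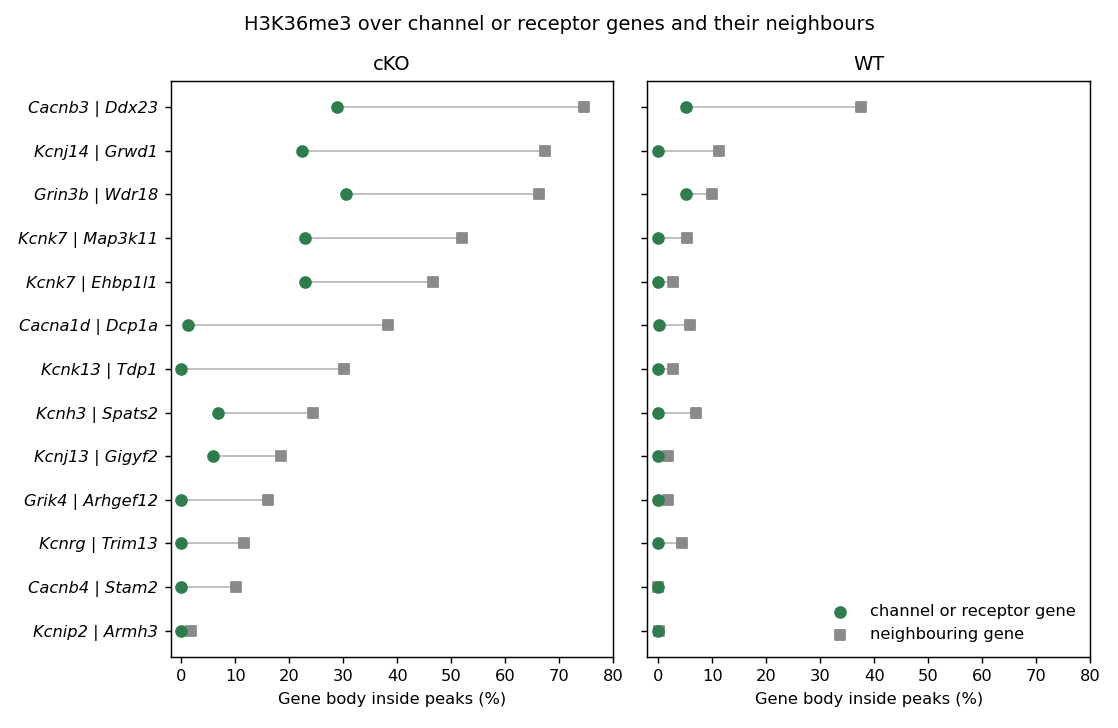
Share of the gene body inside H3K36me3 peaks, in percent, for each channel or receptor gene (circles) and the neighbouring gene that holds peaks of its name (squares), in cKO (left) and WT (right); Cacng8, whose peaks lie in Cacng7, is left out. In all 13 pairs the neighbour is covered more fully than the channel or receptor gene in cKO, from 1.78% for Armh3 to 74.7% for Ddx23. Neighbours were picked for holding peaks, so where the channel or receptor gene has no body peak this order was set by the choice.

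Most WT peaks on the named genes had a counterpart in cKO. Of the 69 WT peaks, 66 were overlapped by a cKO peak by at least 1 bp (95.7%, interval 87.8 to 99.1%), beside 96.0% of all WT peaks. In the other direction 42 of 195 cKO peaks met a WT peak (21.5%, interval 16.0 to 28.0%), beside 25.3% of all. The 3 WT peaks without a partner were named Grik4, Kcnk13 and Scn8a, and only the last lay in the gene of its name. Peaks in the body of the named gene alone ranked low within the cKO list by -log10 q, at a median percentile of 31.1. In the WT list they stood at 54.3. The 9 cKO and 2 WT peaks that also overlapped another gene stood at 68.2 in cKO and 69.1 in WT. Those in another gene only stood at 54.7 in cKO and 54.3 in WT.

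Related genes of fast signalling were read in the same way. Of 37 other channels and receptors, 11 carried a body peak in cKO (29.7%) and 6 in WT (16.2%), beside 43.7% in cKO and 31.3% in WT of all protein-coding genes. Among these, the chloride channel and transporter genes Clcn2 to Clcn7 were all marked in cKO, led by Clcn6 with 77.6% of its body inside peaks in cKO and 25.7% in WT. Gabbr1, a subunit of the metabotropic GABA-B receptor, had 52.5% in cKO and 8.75% in WT. Of 38 genes for transmitter handling and receptor scaffolds, 25 were marked in cKO (65.8%) and 14 in WT (36.8%), among them Glul, glutamine synthetase, with 60.9% in cKO and 24.8% in WT, and Pick1, which binds AMPA receptors, with 41.4% in cKO and 4.54% in WT. Gad2, which makes GABA, had no peak in cKO and 1 in WT.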

How the data were processed

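Chromatin was crosslinked with formaldehyde and immunoprecipitated, per the labels' protocols. Bowtie2 2.2.9 and the build mm10 are named in the submitters' processing notes. Narrow peaks were called in each ChIP library against input with MACS 2.1.1.20160309 at a p cutoff of 1.00e-05, per the file headers (MACS2 2.1.0 in the submitters' processing notes). The deposited peak lists give the pileup signal, the fold enrichment over input and the -log10 p-value and -log10 q-value, as written by the authors' caller. The file headers say that q was not calculated, so it was used for ranks and filters inside 1 list, never between lists. The authors' second table per library gives each peak a class and a gene name. Its maker is not stated in the files or labels.

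Peaks were matched to names and to RefSeq spans by an overlap of 1 bp in Python 3.11.15 with pandas 2.3.3 and scipy 1.17.1, tested on simulated data. A gene was marked when 1 peak or more overlapped its body, and coverage was the percent of its bases inside peaks. In counts by the authors' names, a gene was marked when 1 non-intergenic peak or more carried its name. Narrow calling splits a broad mark, so peak number depends on signal strength. Strand came from the RefSeq promoter table or, for Scn3a, Cacna1g and Cacng4, from the order of numbered introns and exons. Distances run from the outer 5′ end of the span. With 1 library per genotype, a fold of 2 in summed length was a rule of size, not a test.

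Genes named were those with at least 3 WT peaks or over 3000 bp in cKO, the 4 longest per family, those marked in WT alone and a list of main forebrain subunits; the remaining members were named to account for each. Results of a few genes are not reported here. Members and lists were chosen with earlier results of these data known.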

Additional observations from a re-analysis of the deposited data

How the results depend on the processing

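Filters of -log10 q of at least 5 and of fold enrichment of at least 4, and counting intergenic peaks or intron and exon peaks alone, moved none of the counts by over 1.5 times except the genes marked in WT alone (1 as reported). That count was 0 at -log10 q of at least 5, 2 with intron and exon peaks alone and 0 over RefSeq spans. With RefSeq spans in place of names, summed length was 98.7 kb in cKO and 15.3 kb in WT.

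The length of the cKO list mattered most. Reduced to the WT number of peaks, it gave 16 marked genes, 66 peaks and 102 kb in cKO, 2 genes in cKO alone and 2 in WT alone, and 81.2% of WT peaks overlapped. Reduced to the WT covered length, it gave 3 marked genes, 5 peaks and 33.0 kb in cKO, 0 genes in cKO alone and 13 in WT alone, 3 genes at least 2-fold longer in cKO, and 26.1% overlapped. Grik5 and Kcnj14 were among those 3. For Grik5, coverage was 35.95% in cKO at the WT number and 22.8% at the WT length, against 11.5% in WT.

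Assignment mattered next, and both of the following settings were chosen after seeing the data. Counting peaks in the named gene's span and no other protein-coding span left 16 genes, 96 peaks and 65.2 kb in cKO, 7 genes, 33 peaks and 10.5 kb in WT, and 6 genes at least 2-fold longer in cKO. Counting by the gene of the annotated transcript, where the files pair them, left 13 genes, 81 peaks and 66.8 kb in cKO, 8 genes, 39 peaks and 12.4 kb in WT, 6 genes in cKO alone, and 6 at least 2-fold longer in cKO.

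No paired analysis was possible because each genotype has 1 ChIP library and no result comes from a test, and leaving out a library leaves nothing to compare. Peaks below the calling threshold, and differences between embryos, were not measured.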
